A study of Homo sapiens with 8 samples.

Results

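TMPRSS15 and 9 further transmembrane or membrane-anchored serine proteases were followed in MIV-Luc breast cancer cells, in which the interleukin 13 receptor IL13Rα2 was depleted and IL-13 was added. The 10 genes were taken by their symbol from the deposited table, where they are measured by 12 features, out of 20219 distinct symbols and 29141 tested features. TMPRSS15 was chosen by its measured values in this experiment, namely its higher level in the knockdown cells. Its values are therefore given as a description, without a test. The other 9 genes (TMPRSS2, TMPRSS3, TMPRSS4, TMPRSS6, TMPRSS11A, TMPRSS11D, TMPRSS11E, ST14 and PRSS8) belong to the same kind of protease, and the list was drawn up when results of these data were already known.

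MIV-Luc is a luciferase-carrying derivative of MCF10CA1a (MIV), a metastatic human carcinoma line that descends from the breast epithelial line MCF10A. All cells carried the luciferase gene and a pLKO hairpin construct, either scrambled (shSCR) or directed against IL13Rα2 (shIL13Rα2#2), and were left mock-treated (− IL-13) or were given IL-13 at 20 ng/ml over 16 h (+ IL-13). Each of the 4 groups was measured on 2 arrays, called A and B by column order. Each line was a pool of transduced cells with 1 hairpin, so that the loss of IL13Rα2, other targets of the hairpin and the history of the line cannot be told apart.

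Type II transmembrane serine proteases are held in the plasma membrane by a segment near their amino terminus and carry a trypsin-like domain outside the cell. They are made as zymogens and become active by a cleavage in front of that domain. In epithelia they process other zymogens, growth factors, ion channels and protease-activated receptors, and Kunitz-type inhibitors and serpins keep them in check. TMPRSS15 is enteropeptidase, the enzyme of the duodenal brush border that converts trypsinogen to trypsin. TMPRSS2 is best known from prostate epithelium, TMPRSS3 from the inner ear, TMPRSS4 from carcinomas and TMPRSS6 (matriptase-2) from the liver, where it restrains hepcidin by cleaving hemojuvelin. TMPRSS11A, TMPRSS11D and TMPRSS11E form a branch found in squamous and airway epithelium. ST14 encodes matriptase, which activates the HGF precursor, urokinase and prostasin. PRSS8 encodes prostasin, which is tethered by a lipid anchor instead of a membrane segment and acts on the epithelial sodium channel.

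The values are log2 expression values made by the authors with the RMA method, so a difference of 1 on this scale is a 2-fold change. Array medians lay between 5.02 and 5.06. IL13RA2, the targeted gene, had log2 values of 8.07 and 8.09 in mock-treated shSCR cells against 6.52 and 6.34 in mock-treated knockdown cells, and 9.36 and 9.33 against 8.23 and 8.15 in the IL-13-treated cells, so that both arrays of the knockdown lay lower under either treatment. IL-13 raised it 3.38-fold in knockdown cells. IL-13-treated knockdown cells were therefore not lower in IL13RA2 than mock-treated shSCR cells (difference 0.11, limma adjusted p = 0.815). Of the epithelial markers read for the cell type, the mammary basal list had a mean log2 level between 8.02 and 8.23 over the 8 arrays and the luminal list one between 8.99 and 9.25. These means are carried by bright features such as those of ITGA6 and EPCAM, while KRT19 lay at 4.88 to 5.31, near the array medians, and they do not establish a cell type. The immune markers lay between 4.07 and 4.38 and the fibroblast markers between 4.50 and 4.61. Groups were compared with limma on all 8 arrays, and the calls required more than a 2-fold change and an adjusted p under 0.05, with the Benjamini-Hochberg adjustment made across the whole table.

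Because the study turns on STAT6, the transcription factor activated by IL-13, the promoter of TMPRSS15 is shown here with its STAT-type motifs. The RefSeq promoter windows of 300 bases (250 before to 50 after the start) held 5 of the 10 members, TMPRSS15, TMPRSS3, TMPRSS11A, TMPRSS11D and TMPRSS11E. They were searched for TTCNNNNGAA, the spacing preferred by STAT6, and for TTCNNNGAA. Both read the same on either strand and differ by 1 base in spacing, so a match to one is not a match to the other. A match would be in capitals. The 250 bases before the start of TMPRSS15, at chr21:18403786-18404035 on the minus strand of GRCh38.p14 and written in the direction of transcription, held neither motif:
TMPRSS15: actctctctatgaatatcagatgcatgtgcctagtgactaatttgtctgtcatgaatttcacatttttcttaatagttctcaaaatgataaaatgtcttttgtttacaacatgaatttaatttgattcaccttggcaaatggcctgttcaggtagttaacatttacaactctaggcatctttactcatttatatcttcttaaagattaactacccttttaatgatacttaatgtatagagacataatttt
No window of the other 4 genes held either motif. Of all 35116 windows of this length, 6.44% held TTCNNNNGAA and 7.66% held TTCNNNGAA. A missing match says only that these letters are not in this window.

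TMPRSS15 (feature 8069582) was higher in every knockdown array than in any shSCR array, and its level with IL-13 was close to that without it. Its log2 values were 3.69 and 3.42 in MIV-Luc-shSCR (− IL-13) and 3.51 and 3.50 in MIV-Luc-shSCR (+ IL-13). The values for MIV-Luc-shIL13Rα2#2 (− IL-13) were 5.18 and 5.14, and those for MIV-Luc-shIL13Rα2#2 (+ IL-13) were 5.14 and 5.21. The 4 shSCR arrays thus spread over 0.27 and the 4 knockdown arrays over 0.077, while 1.45 separated the highest shSCR array from the lowest knockdown array.

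In group means, the order from low to high was shSCR with IL-13 (3.51 ± 0.01, SD, n = 2), shSCR without IL-13 (3.55 ± 0.19, SD, n = 2), knockdown without IL-13 (5.16 ± 0.03, SD, n = 2) and knockdown with IL-13 (5.17 ± 0.05, SD, n = 2). Neighbours within one cell line did not differ beyond their spread, and the step lay between the lines. The knockdown difference in TMPRSS15 was 1.61 on the log2 scale (standard error 0.12) without IL-13, a 3.04-fold change, and 1.67 (standard error 0.12) among IL-13-treated cells, a 3.18-fold change. Between IL-13-treated knockdown cells and mock-treated shSCR cells, where IL13RA2 was not lower, it was 1.62 (standard error 0.12). These 3 differences share arrays with each other, and they are of the kind that put the gene on the list. The IL-13 difference in TMPRSS15 was -0.048 in shSCR cells (95% confidence interval -0.33 to 0.23) and 0.014 in knockdown cells (95% confidence interval -0.26 to 0.29), intervals that leave room for a change of the size of the array spread. The value in mock-treated shSCR cells rests on arrays that differ by 0.27, and the knockdown difference without IL-13 was 1.74 without array A and 1.47 without array B of that group.

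**Figure D1:**
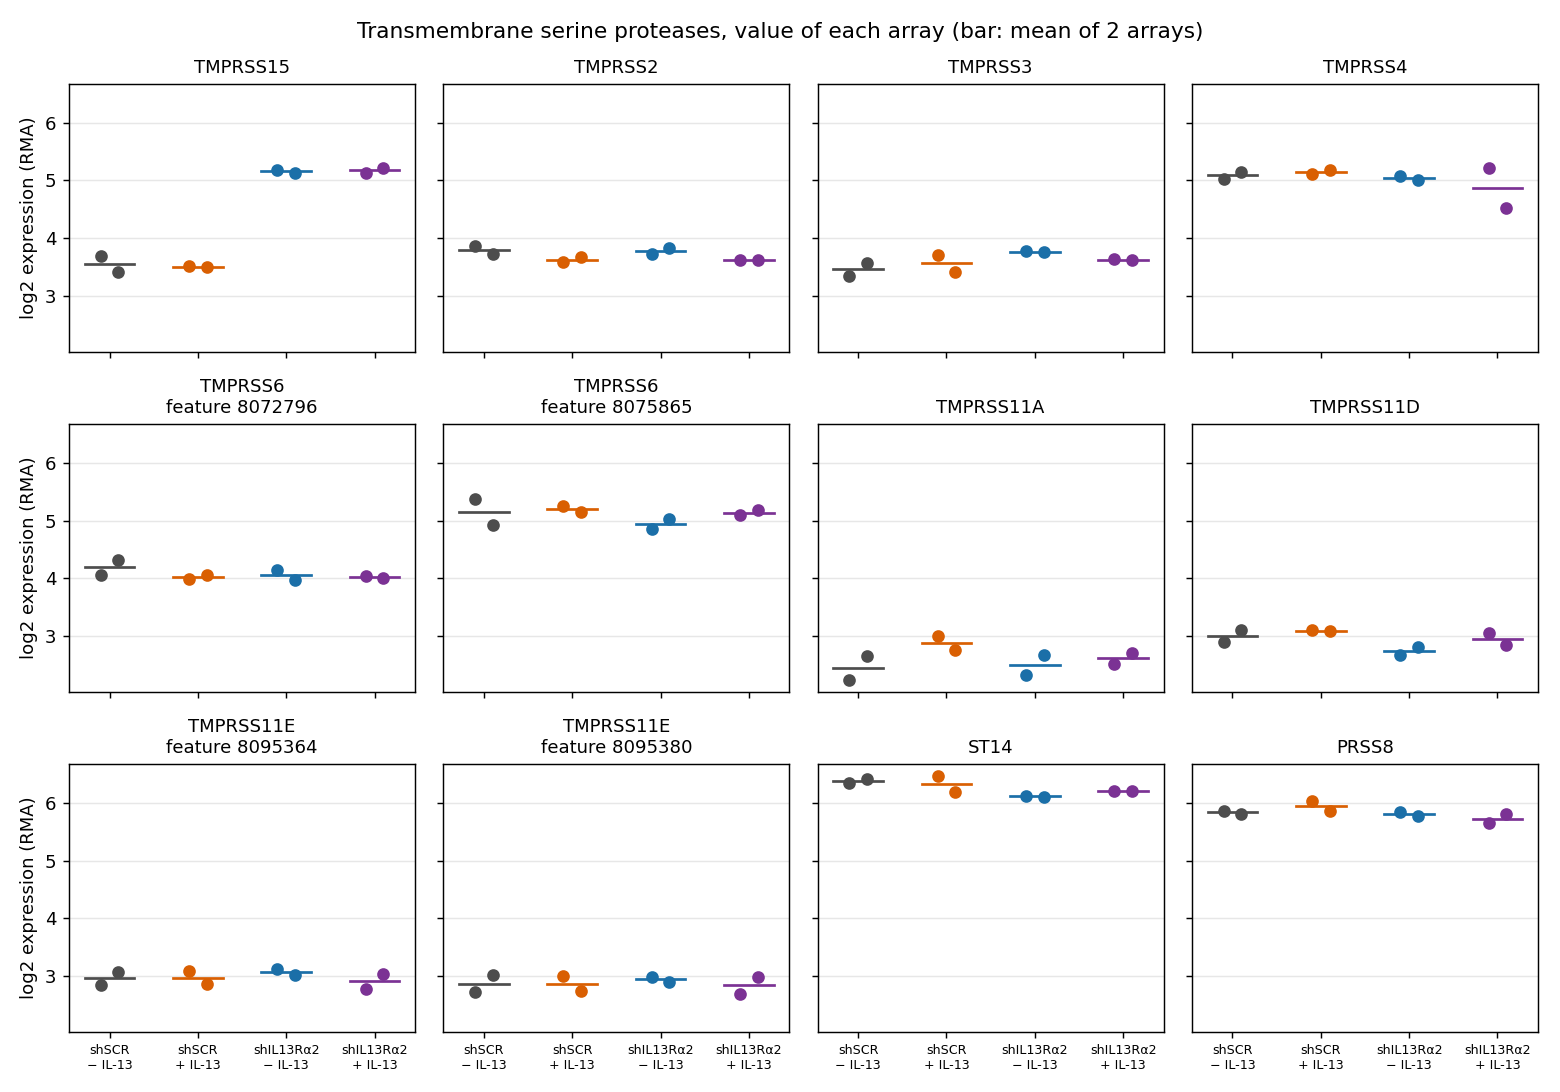
Log2 expression (RMA) of the 12 features of the 10 proteases in each of the 8 arrays, with 1 panel a feature and a common axis. Points are arrays and bars are means of 2 arrays. TMPRSS15 sits between 3.42 and 3.69 in the shSCR arrays and between 5.14 and 5.21 in the knockdown arrays, and the panels of the other features hold no such step.

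The arrays carry 2904 negative control features, whose median log2 value lay between 4.12 and 4.38 in an array. TMPRSS15 lay below that median in all 4 shSCR arrays and above it in all 4 knockdown arrays. The controls were widely spread, with a 95th percentile of 9.41 to 9.74 that no member reached, so they set no sharp limit of detection. ST14, PRSS8, TMPRSS4 and 1 of the 2 features of TMPRSS6 were above the control median in all 8 arrays. TMPRSS2, TMPRSS3, TMPRSS11A, TMPRSS11D and TMPRSS11E were below it in all 8, and these 5 genes were also among the dimmest 30% of features. The table gives no detection calls. For a gene near the background a fold change on the RMA scale can understate the change in its RNA.

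TMPRSS15 lies on chromosome 21 (GRCh38.p14), as do TMPRSS2 and TMPRSS3, while TMPRSS11A, TMPRSS11D and TMPRSS11E are on chromosome 4. The nearest genes on either side of TMPRSS15 that have a feature in the table are CHODL and NCAM2. CHODL, which encodes a membrane lectin, had log2 values of 3.24 to 3.67 in the shSCR arrays and 3.50 to 3.62 in the knockdown arrays. NCAM2, a neural adhesion molecule, had 2.99 to 3.28 and 3.24 to 3.37. The mean knockdown difference over both treatments was 0.065 for CHODL (limma adjusted p = 0.863) and 0.18 for NCAM2 (limma adjusted p = 0.509). Over both treatments the arrays of the lines overlapped for both genes. Within a treatment the knockdown arrays lay wholly higher for NCAM2 without and with IL-13, and for CHODL with IL-13. Such a separation, in either direction, held for 41.2% and 36.4% of all tested features. Both genes were below the control median in every array. A step of the size seen in TMPRSS15 was not measured in either neighbour.

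The other 9 proteases were nearly level over the 4 groups. Limma called 0 of them in each of the 8 comparisons: IL-13 within each line, the knockdown within each treatment, IL-13-treated knockdown against mock-treated shSCR cells, the mean effects of knockdown and of IL-13, and their interaction. At an unadjusted limma p under 0.05 the count was 1, TMPRSS11A with IL-13 in shSCR cells, and 0 in the other comparisons. Over all tested features that mark was reached by 6.79% in this comparison, 6.93% for IL-13 in knockdown cells, 9.51% for the knockdown without and 7.07% with IL-13, and 9.56% for IL-13-treated knockdown against mock-treated shSCR cells. It was reached by 11.3% for the mean knockdown effect, 8.73% for the mean IL-13 effect and 4.47% for the interaction. A one-way analysis of variance, which the study's methods name, called 0 of them at more than 2-fold with or without adjustment in the 5 comparisons of 2 groups. Over all tested features the share called by limma was 0.0755% for the mean knockdown effect and 0.0927% for the mean IL-13 effect. It was 0.0583% for IL-13 in shSCR cells, 0.0618% for IL-13 in knockdown cells, 0.0652% for the knockdown without IL-13, 0.0515% for the knockdown under IL-13 and 0.154% for IL-13-treated knockdown against mock-treated shSCR cells, and 0% for the interaction. With shares this small, 0 calls among 9 genes lie near the background.

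How often the 2 arrays of one group lay wholly above or below those of another was also counted over the 11 features of these 9 genes. The count was 2 for IL-13 in shSCR cells (36.7% of all tested features), 3 for the knockdown without IL-13 (41.2%), 3 for the knockdown among IL-13-treated cells (36.4%), 5 for IL-13 in knockdown cells (37.4%) and 4 for IL-13-treated knockdown against mock-treated shSCR cells (40.3%). With 4 arrays on each side it was 0 for the knockdown (7.13%) and 1 for IL-13 (4.78%), TMPRSS2. These counts are near the background and are no result about the group.

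The 95% confidence intervals bound the differences on the RMA scale, which for the 5 dimmest genes need not bound the change in RNA. For the mean knockdown effect the 11 features of these genes had log2 differences from -0.20 (TMPRSS11D) to 0.18 (TMPRSS3), with a median of -0.11 against -0.0060 over all tested features. The bound of a 95% confidence interval farthest from 0 was 0.49, for TMPRSS4, which is a 1.41-fold change. For the mean IL-13 effect the range was -0.16 (TMPRSS2) to 0.27 (TMPRSS11A), and the farthest bound was 0.58, for TMPRSS11A, a 1.49-fold change. Single comparisons were less precise, with a farthest bound of 1.81-fold for IL-13 in shSCR cells (TMPRSS11A), 1.53-fold and 1.68-fold for the knockdown without and with IL-13 (TMPRSS3 and TMPRSS4), and 1.88-fold for the interaction (TMPRSS11A). TMPRSS15 had a mean knockdown effect of 1.64, and the next member by size, TMPRSS11D, one of 0.20 in the opposite direction.

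**Figure D2:**
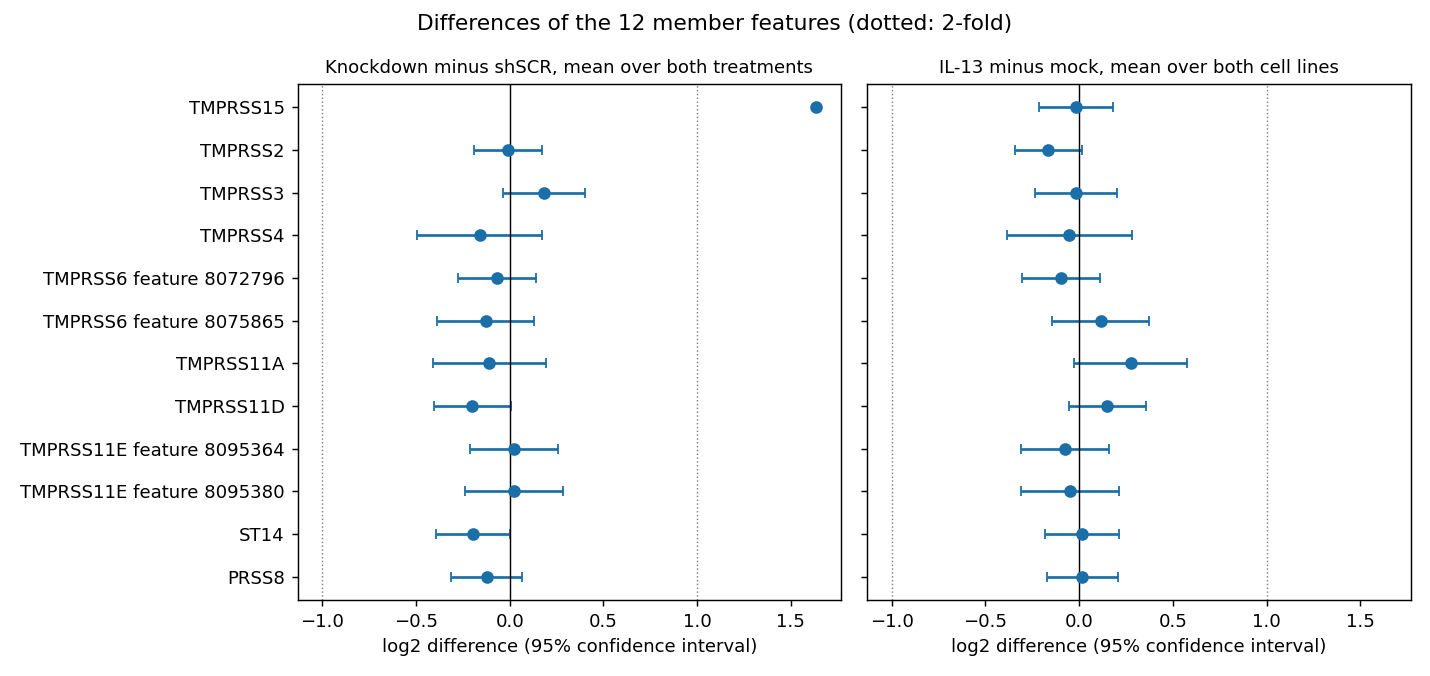
Log2 difference of each of the 12 features, knockdown minus shSCR over both treatments on the left and IL-13 minus mock over both cell lines on the right, with 95% confidence intervals from limma over 8 arrays, except for the knockdown difference of TMPRSS15, which is a point without an interval because the gene was chosen by it. Dotted lines mark a 2-fold change. On the left TMPRSS15 stands at 1.64 and the other features between -0.20 and 0.18.

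Matriptase and prostasin activate other zymogens at the epithelial surface. The log2 values of ST14 were 6.35 and 6.41 in shSCR (− IL-13), 6.47 and 6.18 in shSCR (+ IL-13), 6.12 and 6.10 in knockdown (− IL-13) and 6.20 and 6.21 in knockdown (+ IL-13) cells. The 2 lines did not overlap without IL-13 and overlapped with it. The mean knockdown difference was -0.20 (95% confidence interval -0.39 to 0.0037, limma adjusted p = 0.451) and did not pass the test.

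PRSS8, which matriptase activates, had log2 values between 5.77 and 6.03 in all arrays but array A of the IL-13-treated knockdown cells, which had 5.65. Its mean knockdown difference was -0.12 (95% confidence interval -0.31 to 0.07, limma adjusted p = 0.633). The arrays of the lines overlapped without IL-13 and did not overlap with it, where the difference was -0.21 (limma adjusted p = 0.780).

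TMPRSS2 was the member whose arrays separated by treatment over both lines. The 4 mock-treated arrays lay at 3.87, 3.72, 3.72 and 3.84 and the 4 IL-13-treated arrays at 3.58, 3.67, 3.62 and 3.62, all of the latter below all of the former. Such an arrangement in the lower direction held for 1.93% of all tested features. The mean IL-13 difference of -0.16 (95% confidence interval -0.34 to 0.018, limma adjusted p = 0.617) did not pass the test. The separation was not particular to TMPRSS2, since TMPRSS7 of the same family, named after its values were seen, had 3.62 to 4.05 in the mock-treated and 3.10 to 3.49 in the IL-13-treated arrays.

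TMPRSS3 had log2 values of 3.35 and 3.58 in shSCR (− IL-13) cells and 3.78 and 3.75 in knockdown (− IL-13) cells, the same direction as TMPRSS15. With IL-13 they were 3.71 and 3.42 against 3.64 and 3.62, which overlapped. The knockdown difference without IL-13 was 0.30 (95% confidence interval -0.0066 to 0.61, limma adjusted p = 0.536). Without IL-13 the arrays did not overlap for TMPRSS3, which was higher, and for TMPRSS11D and ST14, which were lower.

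TMPRSS4 had log2 values between 5.01 and 5.22 in 7 arrays and 4.53 in array B of the knockdown with IL-13, the widest spread within a group among the members (SD 0.49, n = 2). Its knockdown difference among IL-13-treated cells, -0.28 (limma adjusted p = 0.845), rests on that array.

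TMPRSS6 was measured by 2 features that were between 0.60 and 1.32 apart in an array. Feature 8072796 ranged from 3.96 to 4.32 and feature 8075865 from 4.86 to 5.37. Their mean IL-13 differences had opposite signs, -0.096 (limma adjusted p = 0.816) and 0.12 (limma adjusted p = 0.822), so no direction with IL-13 can be given for the gene. Their mean knockdown differences were -0.070 (limma adjusted p = 0.824) and -0.13 (limma adjusted p = 0.723), and neither passed the test.

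The squamous and airway branch was the dimmest of the group. TMPRSS11A had log2 values of 2.25 and 2.65 in shSCR (− IL-13) cells and 3.01 and 2.75 in shSCR (+ IL-13) cells, which did not overlap. In knockdown cells it had 2.33 and 2.67 without and 2.52 and 2.71 with IL-13, which overlapped. Its IL-13 difference was 0.43 in shSCR cells (95% confidence interval 0.0057 to 0.86, limma unadjusted p = 0.0477, adjusted p = 0.732) and 0.12 in knockdown cells (limma adjusted p = 0.934), and the interaction of -0.31 (limma adjusted p = 0.989) did not separate the responses. TMPRSS11D ranged from 2.89 to 3.10 in the shSCR arrays and from 2.68 to 3.05 in the knockdown arrays, with a mean knockdown difference of -0.20 (limma adjusted p = 0.460). The 2 features of TMPRSS11E differed by at most 0.14 in an array and their values lay between 2.69 and 3.12. Their mean knockdown differences were 0.024 and 0.022 (limma adjusted p = 0.961 and 0.968).

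The genes with the profile most like that of TMPRSS15 were sought over the 8 arrays among the 139 symbols whose group means spanned at least 1 log2 unit. By Pearson's r the 5 highest were CDH19 (r = 0.989), MLLT3 (0.977), VAV3 (0.974), COL12A1 (0.973) and BICC1 (0.967). These r values are descriptions over 8 arrays that fall into a low and a high set by cell line, and any gene with a step between the lines scores high. CDH19, a cadherin, had log2 values of 6.92 to 7.05 in the shSCR arrays and 8.11 to 8.26 in the knockdown arrays. MLLT3, a subunit of the super elongation complex, had 5.67 to 6.10 and 7.15 to 7.31. VAV3 had 3.87 to 4.10 and 4.71 to 5.04, COL12A1, a fibril-associated collagen, had 7.08 to 7.34 and 8.05 to 8.19, and BICC1, an RNA-binding protein, had 4.46 to 4.85 and 5.65 to 5.94. The other 9 proteases could not enter this search, since their group means spanned at most 0.43. The mean knockdown differences of the 5 similar genes ran from 0.90 in VAV3 to 1.34 in MLLT3, all smaller than the 1.64 of TMPRSS15.

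**Figure D3:**
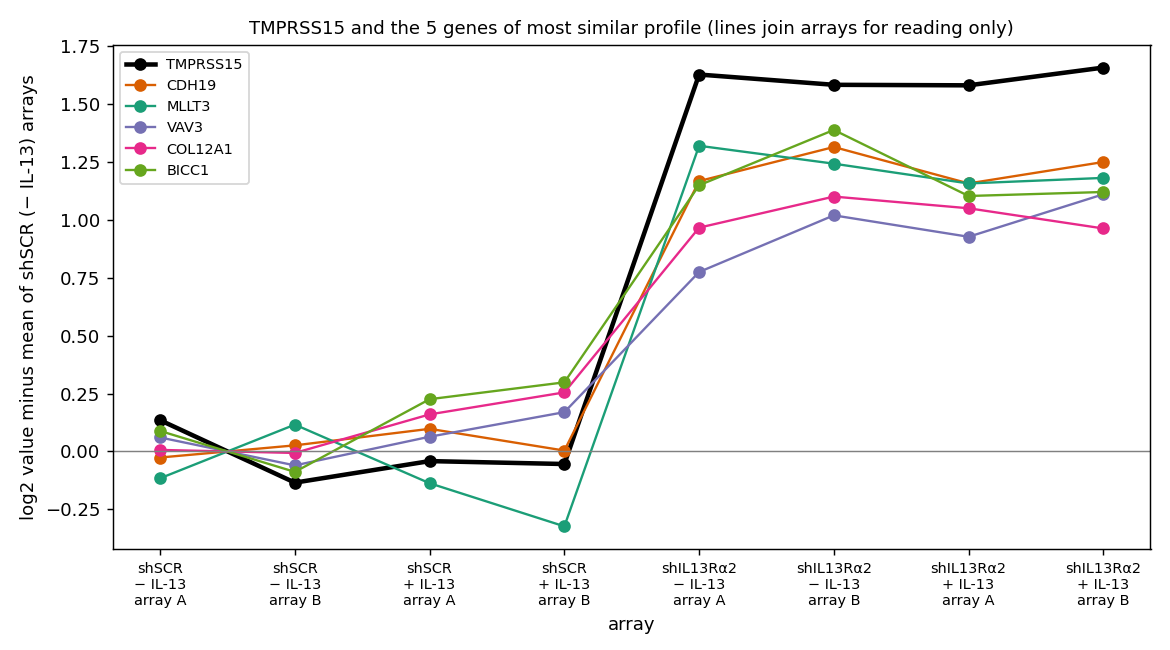
Log2 value of each array minus the mean of the shSCR (− IL-13) arrays, for TMPRSS15 and the 5 genes with the highest Pearson's r to it over the 8 arrays. All 6 genes are higher in the 4 knockdown arrays than in the 4 shSCR arrays, which the way they were chosen favours. TMPRSS15 shows the largest step of these 6.

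Of the 9 type II transmembrane serine proteases outside the group (HPN, CORIN, TMPRSS5, TMPRSS7, TMPRSS9, TMPRSS11B, TMPRSS11F, TMPRSS12 and TMPRSS13), limma called 0 in each comparison. Their mean knockdown differences ran from -0.18 in TMPRSS5 (limma adjusted p = 0.618) to 0.10, with a median of -0.027 against -0.0060 over all tested features. Of these genes 0 had an unadjusted limma p under 0.05 for that effect, a mark that 11.3% of all tested features reached. No gene of this list reached a 2-fold difference in any of the 8 comparisons. The farthest from 0 with IL-13 was TMPRSS7, with a mean IL-13 difference of -0.53 (limma unadjusted p = 0.0018, adjusted p = 0.214), of which -0.41 was measured in shSCR cells (limma adjusted p = 0.702) and -0.64 in knockdown cells (limma adjusted p = 0.443). The 5 anchored serine proteases of other structure (PRSS21, PRSS22, PRSS27, PRSS41 and TPSG1) had 0 calls and 0 genes at an unadjusted limma p under 0.05 for the mean knockdown effect, beside the same 11.3%. PRSS21 was the farthest from 0 at -0.30 (limma adjusted p = 0.451). At most 0.154% of all tested features were called in a comparison. The counts of 0 in these lists, and 0 calls in the lists below, thus lie near the background.

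In the list of serine protease inhibitors and related serpins, more genes were lower than higher in the knockdown cells at an unadjusted limma p. The list was not limited to genes known to inhibit the proteases of this group. It was drawn up with earlier results of these data known, so the lean is a description. Of 14 measured genes, 5 had a mean knockdown difference below 0 and 1 above 0 at an unadjusted limma p under 0.05. That mark was reached by 11.3% of all tested features in either direction, which is no share for 1 direction. The list's median was -0.22, beside -0.0060 over all tested features, and this was not tested as a set. The gene above 0 was SPINK6, a Kazal-type inhibitor named after its values were seen, with a mean knockdown difference of 0.47 (limma adjusted p = 0.241). SPINK6 had log2 values of 3.47 and 3.68 in shSCR (− IL-13) and 4.52 and 4.62 in knockdown (+ IL-13) cells. PI3 and SERPINE2, also named after their values were seen, were lower in every knockdown array than in any shSCR array. PI3 had 6.99 to 7.52 in the shSCR and 6.52 to 6.66 in the knockdown arrays, and SERPINE2 had 9.12 to 9.31 and 8.71 to 8.90. The lines did not overlap, in either direction, for 7.13% of all tested features. SERPINA1 (α1-antitrypsin) is a broad serpin inhibitor of serine proteases. Its log2 values were 6.86 and 6.35 in shSCR (− IL-13), 6.24 and 6.26 in shSCR (+ IL-13), 5.48 and 5.51 in knockdown (− IL-13) and 5.33 and 5.45 in knockdown (+ IL-13) cells, without overlap between the lines. Limma called it between IL-13-treated knockdown and mock-treated shSCR cells, at -1.21 (standard error 0.16, adjusted p = 0.0357), a comparison in which hairpin and treatment both differ. IL13RA2 itself was not lower in that comparison. The knockdown alone was not called, with -1.11 without IL-13 (limma adjusted p = 0.106) and -0.86 among treated cells (limma adjusted p = 0.231). The study's own list for the knockdown without IL-13 holds SERPINA1 as downregulated. A robust prior with an intensity trend gave it an adjusted limma p of 0.0091 there. The mean knockdown difference of -0.98 (standard error 0.12, adjusted p = 0.0191 from limma) passed the adjusted p and stayed just under 2-fold. With 1 array left out, the first of these calls held only when array B of mock-treated shSCR was dropped (limma adjusted p = 0.0439) and was lost without any one of the other 7 arrays (limma adjusted p up to 0.215), while the difference stayed between -1.47 and -0.96. The mean difference stayed under the adjusted threshold in 2 of 8 such fits (limma adjusted p from 0.0155 to 0.113), between -1.11 and -0.86. Each of these fits has 1 residual degree of freedom less.

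SPINT2 (HAI-2), the Kunitz-type inhibitor of matriptase and prostasin, had log2 values of 7.38, 7.28, 7.41 and 7.08 in the shSCR arrays and 6.72, 6.82, 6.73 and 6.84 in the knockdown arrays, which did not overlap. Its mean knockdown difference was -0.51 (95% confidence interval -0.73 to -0.29, limma adjusted p = 0.0969) and did not pass the test, while a robust prior with an intensity trend gave it an adjusted limma p of 0.0120. SPINT1 (HAI-1), the cognate inhibitor of matriptase, had 6.44 to 6.74 against 6.13 to 6.54, with a difference of -0.26 (limma adjusted p = 0.492). For comparison, the knockdown and shSCR arrays did not overlap, in either direction, for 7.13% of all tested features.

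Among the 21 substrates and partners limma called 0 genes in each comparison, and at an unadjusted limma p under 0.05 the mean knockdown effect was above 0 for 1 and below 0 for 5 of 22 features, where 11.3% of all tested features passed in either direction. F2RL1, which encodes the protease-activated receptor cleaved by matriptase, was at 6.70 to 6.99 in the shSCR arrays and 6.06 to 6.62 in the knockdown arrays, a mean difference of -0.40 (limma adjusted p = 0.298). SCNN1A, the α subunit of the sodium channel that prostasin acts on, had a mean knockdown difference of 0.097 (limma adjusted p = 0.714). PLAUR, the urokinase receptor, was the farthest from 0 at -0.55 (limma adjusted p = 0.153). The 16 tryptic and secreted zymogens likewise had 0 calls, with 0 above and 3 below 0 of 16 features at an unadjusted limma p under 0.05, beside the same 11.3%. PRSS1, the trypsinogen that enteropeptidase activates, had log2 values of 4.26 to 4.81 over the 8 arrays and a mean knockdown difference of -0.17 (limma adjusted p = 0.629). KLK6, a secreted kallikrein, was the farthest of that list at -0.58 (limma adjusted p = 0.170).

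**Figure D4:**
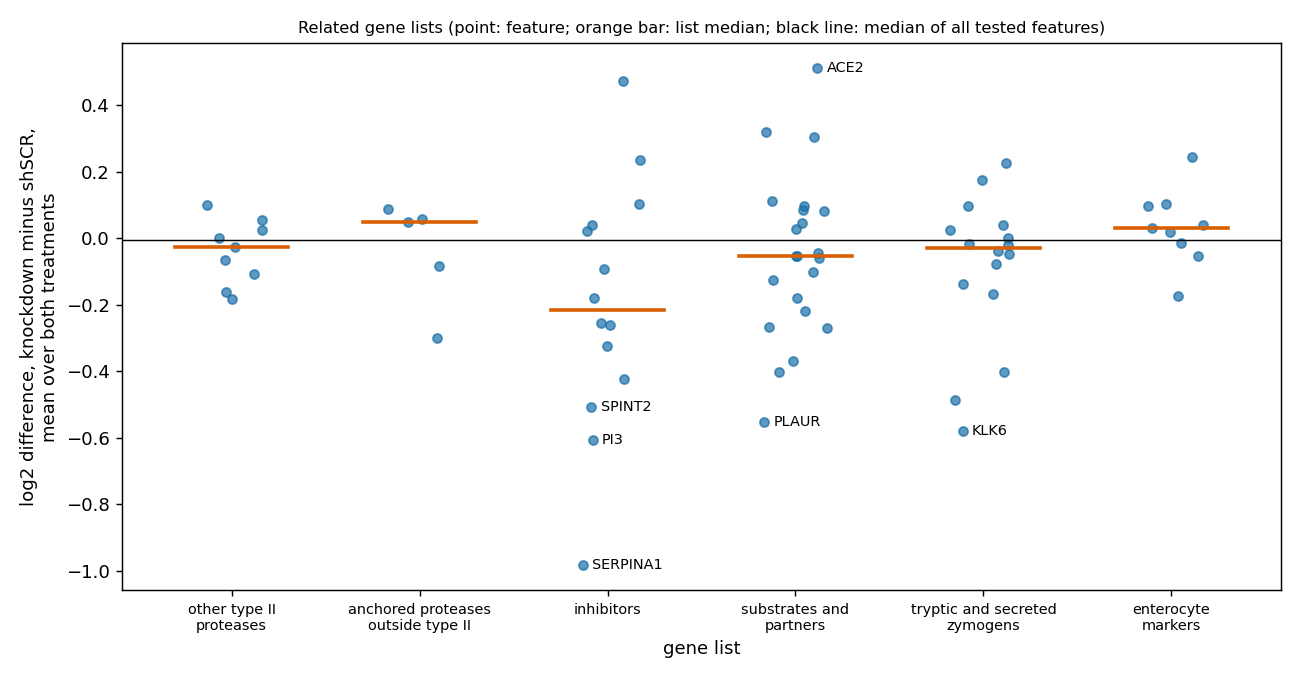
Log2 difference between knockdown and shSCR cells, as the mean over both treatments, for each feature of 5 lists of related genes and of the enterocyte markers. Orange bars are list medians and the black line is the median of all tested features, -0.0060. SERPINA1 is lowest at -0.98, and the inhibitors have the lowest list median, -0.22.

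Since TMPRSS15 is a gene of the duodenum, enterocyte markers were read beside it. Their mean log2 level was 4.24 to 4.37 in the shSCR arrays and 4.31 to 4.37 in the knockdown arrays, and limma called 0 of the 8 genes (FABP2, ALPI, SI, CDX2, CDX1, APOA4, RBP2 and MUC13) in each comparison. ALPI, intestinal alkaline phosphatase, was the farthest from 0 at 0.24 (limma unadjusted p = 0.0414, adjusted p = 0.424). The mean level of the luminal markers was 9.10 to 9.25 in the shSCR arrays and 8.99 to 9.08 in the knockdown arrays. In that list 1 of 2 features of KRT18, a luminal keratin, was lower by a difference of -0.60 (limma adjusted p = 0.0454) and the other was at -0.30 (limma adjusted p = 0.327). GATA3, a luminal transcription factor of the same list named after its values were seen, was at 0.30 (limma adjusted p = 0.221). The mean level of the basal markers was 8.02 to 8.14 in the shSCR and 8.11 to 8.23 in the knockdown arrays. Among them TP63 had a mean knockdown difference of 0.94 (limma adjusted p = 0.0225). For that effect the median over the 8 basal features was -0.043 and the lowest was at -0.20, so that the higher list mean rests on TP63. Limma called TP63 between IL-13-treated knockdown and mock-treated shSCR cells, at 1.78, where 0.154% of all tested features were called. Its mean IL-13 difference of 0.84 passed the adjusted p and stayed under 2-fold. The part of these epithelial markers in the level of TMPRSS15 was not tested. In bulk RNA, a higher level in each cell and a larger share of cells that express the gene cannot be told apart. The mean level of the prostate markers, read beside TMPRSS2, was 4.93 to 5.19. That of the hepatocyte markers, read beside TMPRSS6, was 4.35 to 4.58. Limma called 0 genes of the prostate, hepatocyte, immune and fibroblast lists in each comparison. At an unadjusted limma p under 0.05 for the mean knockdown effect, 1 prostate marker was lower and 0 features of the hepatocyte, immune and fibroblast lists passed. That mark was reached by 11.3% of all tested features, and at most 0.154% were called in a comparison. These counts, and 0 calls in a marker list, lie near those shares.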

How the data were processed

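The authors deposited log2 expression values of 8 Affymetrix arrays, made with RMA in Affymetrix Expression Console version 1 per the labels (background correction, quantile normalization, probe summary). The genome build is not given in the sources used here. Column headings name the construct and treatment, and arrays were assigned to groups by them. Controls and spike-ins (4156 features) were removed, which left 29141 for testing, without a filter. A feature with several symbols was counted under the first.

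Group means were fitted with limma 3.58.1 in R 4.3.3 over all 8 arrays (4 residual and 3.86 prior degrees of freedom). Calls required a fold change above 2 and an adjusted p under 0.05 (Benjamini-Hochberg, whole table), for the interaction the adjusted p alone. Genes with 2 features are given by feature. Members and gene lists were chosen with earlier results of these data known, and no list was tested as a set. The text names all members, SPINT1, SPINT2, F2RL1, SCNN1A and PRSS1 by rule, in each related list the gene farthest from 0 by mean knockdown effect and any with an adjusted p under 0.05, the 5 genes most like TMPRSS15 and its neighbours. Arrays have no read depth, and 2 arrays a group limit the precision. Alternatives were other thresholds, priors, normalizations, a filter on dim features, the methods' analysis of variance and leaving out each array. The methods describe the 2 samples of a group as biological replicates. The fit was also run on simulated data with added shifts above 2-fold. That run does not show whether smaller differences would be found. Promoter sequences and gene order are from RefSeq (GRCh38.p14), in which all 10 members were matched by symbol.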

Additional observations from a re-analysis of the deposited data

How the results depend on the processing

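The counts of called genes among the 9 proteases other than TMPRSS15 were 0 in all 8 comparisons under each alternative run: limma on the 4 arrays compared, no adjustment at 2-fold, a 1.5-fold or no fold threshold, an intensity trend with a robust prior, both renormalizations, leaving out the dimmest 30% of features (which removed 5 of the 10 genes from testing), the analysis of variance, and leaving out each array. The exception, an alternative chosen after seeing the data, was limma without adjustment and fold threshold, with 1 gene for IL-13 in shSCR cells. The differences in TMPRSS15 depended on the arrays of mock-treated shSCR cells. With each array left out in turn they ran from 1.47 to 1.74 for the knockdown without IL-13, from 1.48 to 1.75 for IL-13-treated knockdown against mock-treated shSCR cells, from -0.18 to 0.087 for IL-13 in shSCR cells and from -0.073 to 0.20 for the interaction. The mean knockdown effect stayed between 1.57 and 1.70, and both renormalizations moved none of the TMPRSS15 values by over 1 SD. Of 880 recomputed differences of the other members, 36 moved by over 1 SD, all with an array left out, and 75 turned their sign, from values that were never called.

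Genes called in the 5 related lists together numbered 1 for IL-13-treated knockdown against mock-treated shSCR cells and 0 elsewhere. Without adjustment this became 2 there (SERPINA1 and KLK6), 1 for the knockdown without IL-13 (SERPINA1) and 1 for the interaction (KLK5). For the interaction the mark is the unadjusted limma p alone, which 4.47% of all tested features reached. The share of all features at an unadjusted p and 2-fold was not computed. These unadjusted counts are no result about the lists. An intensity trend with a robust prior brought SERPINA1 for the knockdown without IL-13 from an adjusted p of 0.106 to 0.0091 and SPINT2 for the mean knockdown effect from 0.0969 to 0.0120 (limma). Without the fold threshold it was 1 for the mean knockdown effect (SERPINA1). With each array left out, an alternative added after seeing the data, it was 0 to 1 for that comparison and 0 to 1 for the mean knockdown effect. Of the 5 genes most like TMPRSS15, 4 were shared with the ranking over group means, 4 or 5 with each array left out, 1 without the minimum span and 0 by Spearman's rank correlation, which ignores the size of the step. No paired analysis was possible because the columns carry no replicate numbers. A comparison of protein sequences was not run, and the fits on the groups compared and the analysis of variance apply only to comparisons of 2 groups.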
